A study of Rattus norvegicus with 6 samples.

Results

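Mt1 and Mt2A are metallothionein genes, and 2 of the 30452 gene identifiers in the deposited count table were taken for them, ENSRNOG00000038047 for Mt1 and ENSRNOG00000043098 for Mt2A. Both were chosen by identifier, and both were found in the table. The names were assigned from outside the deposited files, which pair no identifier with a name. Transcript levels came from RNA sequencing of BMSCs (rat mesenchymal stromal cells of the bone marrow) in 6 libraries. These are adherent marrow cells that can form bone, cartilage and fat cells. All were of WT genotype and came from osteogenic differentiation cultures, 3 of them untreated (labelled Blank, the control) and 3 co-cultured with the AAT-ZCG hydrogel, a material for bone defects in diabetes. The strain, age and number of animals, the time in culture and the composition of the hydrogel are not given in the sources used here. The labelled cell type was not checked against marker genes, since those need gene names.

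Metallothioneins are small cysteine-rich proteins that bind zinc and copper in the cytosol and can take up cadmium. Their genes are induced when free zinc or cadmium rises, through the zinc-sensing factor MTF1 (encoded by Mtf1), which binds short metal response elements in their promoters. Glucocorticoids and oxidative stress can also raise them. Mt1 and Mt2A are the broadly expressed members, while Mt3 is known from the nervous system and Mt4 from stratified epithelia.

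The promoters of the RefSeq genes Mt1 and Mt2A are shown because the metal response elements of metallothionein genes lie in promoters. They were found by symbol, and no source used here ties them to the 2 measured identifiers. Each is the 250 bases before the gene's start in RefSeq, build GRCr8, minus strand, at chr19:10832976-10833225 for Mt1 and chr19:10838709-10838958 for Mt2A. Capitals mark each match to TGCACNC or TGCGCNC, both written forms of the core of the metal response element, on either strand. A match on the opposite strand appears as its reverse complement.
Mt1: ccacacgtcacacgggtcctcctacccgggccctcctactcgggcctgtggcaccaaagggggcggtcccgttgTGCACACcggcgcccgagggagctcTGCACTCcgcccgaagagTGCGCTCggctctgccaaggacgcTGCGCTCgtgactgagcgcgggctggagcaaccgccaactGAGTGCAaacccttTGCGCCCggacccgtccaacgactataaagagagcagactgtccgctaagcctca
Mt2A: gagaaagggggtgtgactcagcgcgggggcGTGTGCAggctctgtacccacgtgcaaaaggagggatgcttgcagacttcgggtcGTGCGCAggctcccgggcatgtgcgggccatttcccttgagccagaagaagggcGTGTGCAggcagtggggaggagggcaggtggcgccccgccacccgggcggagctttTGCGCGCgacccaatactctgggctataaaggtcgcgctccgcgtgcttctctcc

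The Mt1 window held 6 matches, 5 on the strand of the gene and 1 on the other. The Mt2A window held 4, 1 on the strand of the gene and 3 on the other. No matches overlapped. In both promoters 1 match covered bases 55 to 49 before the start. Of 33469 RefSeq promoter windows of this length, 20.6% held at least 1 match, 0.266% at least 4 and 0.0269% at least 6. The Mt3 window held 3 matches and the Mt4 window 1. These matches describe the letters of the reference, and binding was not measured.

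Both genes were higher in cells cultured with the hydrogel, Mt2A about 2.91-fold and Mt1 about 3.90-fold in the fitted model. Levels are given as CPM, a gene's counts relative to the size of its library, scaled by TMM (trimmed mean of M values). For 95% counting intervals the exact Poisson method was used, which covers counting error only. Of all genes tested, 34.5% were called at an adjusted p under 0.05, 17.5% higher and 17.1% lower, so a call by itself is not rare here. The size was less common. Only 3.61% of tested genes were called higher with a fold above 2, as both of these were. In bulk RNA, more cells expressing a gene and more RNA per cell cannot be told apart.

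Mt2A stood at 22.7 CPM in control library 1, 23.1 in control library 2 and 22.7 in control library 3. With hydrogel it stood at 74.4, 62.2 and 63.2 CPM in libraries 1, 2 and 3. The groups did not overlap: the lowest hydrogel library lay 2.69 times above the highest control. Such non-overlap, with hydrogel above control, held for 23.8% of all tested genes. The controls were nearly level, within 1.02 times of each other, on 822, 2180 and 882 counts. Hydrogel library 1 stood above the other hydrogel libraries beyond counting error, with an interval of 71.3 to 77.4 CPM against 60.4 to 63.9 and 60.4 to 66.1. The means were 22.8 ± 0.234 CPM in controls and 66.6 ± 6.78 CPM with hydrogel (SD, n = 3 each). The log2 fold change came to 1.54 (SE 0.07, edgeR quasi-likelihood test with Benjamini-Hochberg adjustment over 14715 genes, adjusted p = 2.69e-10).

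Mt1 was less abundant, with 55, 258 and 111 counts in the controls and 268, 689 and 335 with hydrogel. Its levels were 1.52, 2.74 and 2.85 CPM in control libraries 1, 2 and 3. With hydrogel they were 8.64, 8.66 and 11.0 CPM. All hydrogel libraries lay above all controls, the closest pair 3.03 times apart. Non-overlap in this direction was seen for 23.8% of all tested genes. Control library 1 was low beyond counting error, with an interval of 1.15 to 1.98 CPM against 2.41 to 3.09 in control library 2. Hydrogel library 3 was the highest, whereas Mt2A was highest in hydrogel library 1. The means were 2.37 ± 0.738 and 9.45 ± 1.38 CPM (SD, n = 3 each), with a fitted log2 fold change of 1.96 (SE 0.20, adjusted p = 1.67e-06 by edgeR). Without control library 1 the log2 fold change was 1.75.

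**Figure D1:**
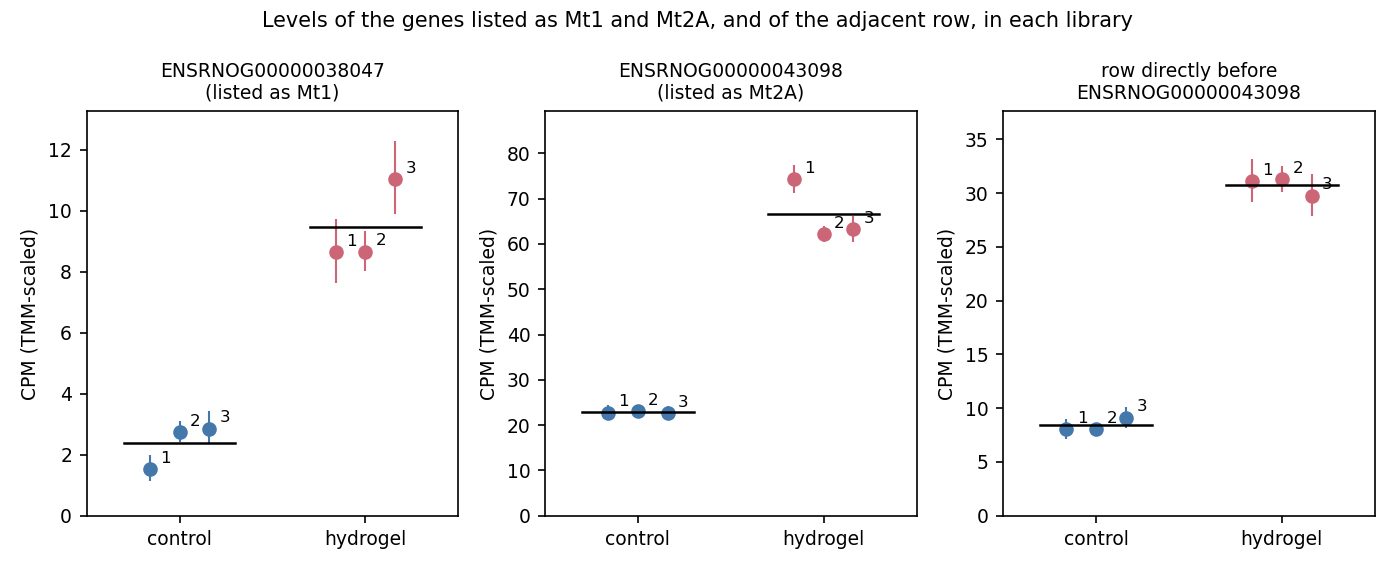
Level in each library of the genes listed as Mt1 and Mt2A and of the row directly before Mt2A in the count table, in TMM-scaled CPM on axes that start at 0 and differ between panels; points are libraries with their number, vertical bars are 95% Poisson counting intervals and black lines are group means of 3 libraries. In each panel every hydrogel library lies above every control, and the Mt1 controls run from 1.52 to 2.85 CPM.

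Among all tested genes, ordered from the highest to the lowest log2 fold change, Mt1 took place 115 and Mt2A place 265 of 14715. Spread between libraries includes counting error, which is relatively larger for Mt1 with its fewer counts. The coefficient of variation of CPM was 31.1% in controls and 14.6% with hydrogel for Mt1, and 1.02% and 10.2% for Mt2A. The Mt2A controls had overlapping counting intervals of 21.2 to 24.3, 22.1 to 24.1 and 21.2 to 24.2 CPM. Each control level lay inside all of these intervals, so the 1.02% does not measure spread beyond counting error.

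Per unit of length, Mt2A was the more abundant gene in every library. In FPKM, the authors' counts scaled to gene length and library total, Mt2A had 58.9 ± 0.686 in controls and 169 ± 17.7 with hydrogel (SD, n = 3 each). Mt1 had 4.95 ± 1.51 and 19.4 ± 2.85 FPKM. Among the 30452 listed genes, Mt2A went from FPKM ranks of 982 to 1015 in controls to ranks of 282 to 359 with hydrogel. Mt1 went from ranks of 7160 to 9235 to ranks of 2636 to 3332.

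The FPKM of Mt2A was 18.4, 10.4 and 9.80 times that of Mt1 in control libraries 1, 2 and 3. It was 10.6, 8.85 and 7.05 times that of Mt1 in hydrogel libraries 1, 2 and 3. The groups overlapped, since hydrogel library 1 lay between the controls. On the log2 scale, the ratio of Mt1 to Mt2A counts was -3.32 ± 0.50 in controls and -2.82 ± 0.30 with hydrogel (SD, n = 3 each). The difference of 0.50 did not stand out in an exact permutation test over libraries (two-sided p = 0.3; these group sizes cannot give less than 0.1). Without control library 1 the difference was 0.21. A larger relative change of Mt1 than of Mt2A was therefore not shown.

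The length behind each FPKM value was recovered from the count, the FPKM and the library total as a check on identity. It was 482 bp for Mt1 and 391 bp for Mt2A in all 6 libraries. FPKM is computed from count, length and library total, so the same length in every library was built in for every gene. Both lengths are short, as metallothionein transcripts are known to be. A length alone does not identify a gene, and 269 other tested genes lay within 25% of the length of Mt1.

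The identity of the Mt1 row is not settled by the sources used here. In RefSeq (GRCr8), Mt1 and Mt2A lie side by side on chromosome 19 with 0 genes between them, and Mt3 follows Mt2A directly. In the count table the rows of ENSRNOG00000038047 and ENSRNOG00000043098 stand 4078 apart. What sets the order of rows is not given, so this distance cannot decide which gene a row is. The order was not used to name any gene. RefSeq also lists 5 further symbols built on Mt1, 4 of them pseudogenes, on chromosomes 1, 6, 17, 20 and X. How the authors counted reads that match several such copies is not given, so the split of reads between related sequences is uncertain for both genes. Values given here for Mt1 are those of ENSRNOG00000038047, whichever of these sequences it is.

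The row directly before Mt2A was looked at because the identity of the Mt1 row is not settled. This was done after its values had been seen, and the row is left unnamed. Its length was 390 bp. It stood at 8.02, 8.06 and 9.13 CPM in the controls and at 31.1, 31.3 and 29.8 CPM with hydrogel. The log2 fold change of this row, 1.88 (SE 0.08, edgeR adjusted p = 2.4e-10), lay between those of Mt2A and Mt1. As the row was picked with its values known, the p-values given for it are descriptions and do not test it. In FPKM it held 21.7 ± 1.51 in controls and 78.1 ± 2.12 with hydrogel (SD, n = 3 each), more than Mt1 and less than Mt2A in both groups. The log2 ratio of its counts to those of Mt2A was -1.44 ± 0.12 in controls and -1.11 ± 0.14 with hydrogel, a difference of 0.34 with no overlap between the groups (exact permutation test, two-sided p = 0.1, the smallest possible). The row directly after Mt2A, of 375 bp, had 1.27 ± 0.574 CPM in controls and 1.12 ± 0.259 with hydrogel (SD, n = 3 each) and was not called (edgeR adjusted p = 0.626).

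Short genes leaned upward with hydrogel, so both genes were set beside others of similar length. Tested genes under 500 bp, Mt1 and Mt2A left out, had a median log2 fold change of 0.11, and 12.4% of 461 were called higher against 1.3% lower. Between 500 and 1000 bp the median was 0.14, with 22% called higher and 7.06% lower of 737. From 4000 bp upward it was -0.02, with 17.5% higher and 21.6% lower of 3964. The median of all tested genes was 0.00.

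**Figure D2:**
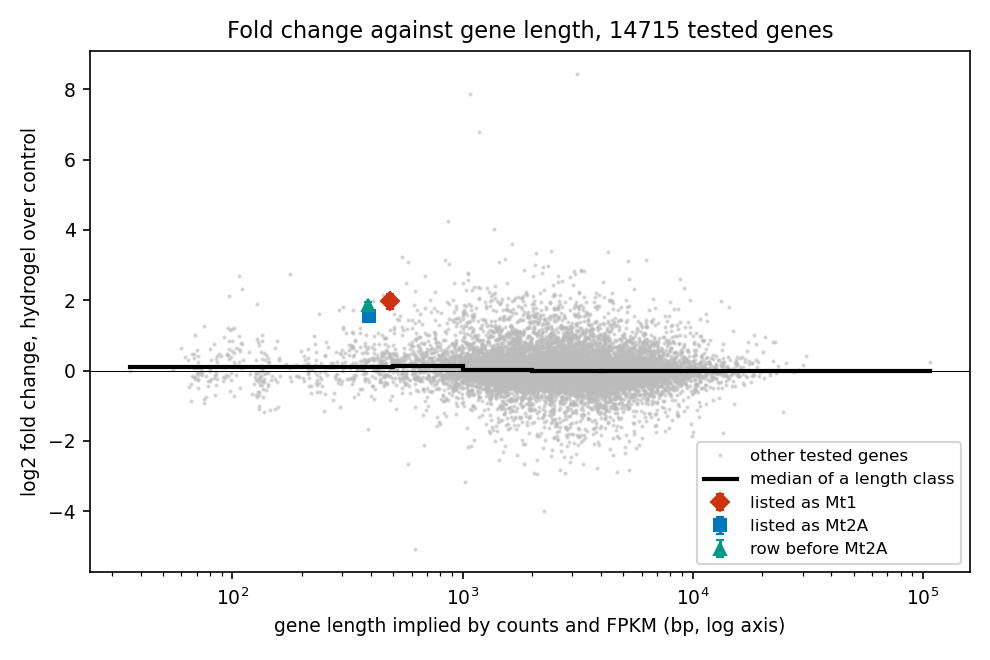
Log2 fold change (hydrogel over control) against the gene length implied by counts and FPKM in bp on a log axis; grey points are the tested genes, black steps are medians of 5 length classes, and the coloured symbols with standard error bars are Mt1, Mt2A and the row before Mt2A. The class medians run from 0.14 to -0.02, and the 3 symbols lie at 1.54 to 1.96.

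Both genes moved much further than the typical gene of their length. The 269 tested genes within 25% of the length of Mt1 (362 to 602 bp) had a median log2 fold change of 0.20 (interquartile range -0.07 to 0.44), and 6 of them lay above Mt1. For Mt2A, the 203 such genes (294 to 487 bp) had a median of 0.21 (-0.09 to 0.51), and 7 lay above Mt2A. Of the genes near Mt1 in length, 18.2% were called higher and 2.6% lower. For those near Mt2A the shares were 15.8% and 1.97%. The lean of the genes in these 2 length windows was thus near 0.2 on the log2 scale, against 1.96 and 1.54 for Mt1 and Mt2A. These are descriptions of the 6 libraries and were not tested.

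Most genes of similar length were of low abundance, with a median of mean CPM of 1.52 near Mt1 and 1.25 near Mt2A. Levels were therefore matched as well. Of 38 genes of similar length and a mean CPM within 2-fold of Mt1, 8 were called higher and 1 lower, the median log2 fold change was 0.19, and 1 lay above Mt1. Of 18 such genes for Mt2A, 9 were called higher and 0 lower, and 0 lay above Mt2A. Their median was 0.29 and the highest 1.00. Every hydrogel library lay above every control for 11 of the 38 genes matched to Mt1 and 8 of the 18 matched to Mt2A. Of the genes averaging 10 CPM or more, 40.5% of 79 near Mt1 in length were called higher and 5.06% lower. Near Mt2A the shares were 43.9% and 4.88% of 41. More were thus called higher than without a limit on level. The shares for genes of all lengths at that level are not given here. Of the 41 genes, 1 lay above Mt2A, and it was the row directly before it.

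**Figure D3:**
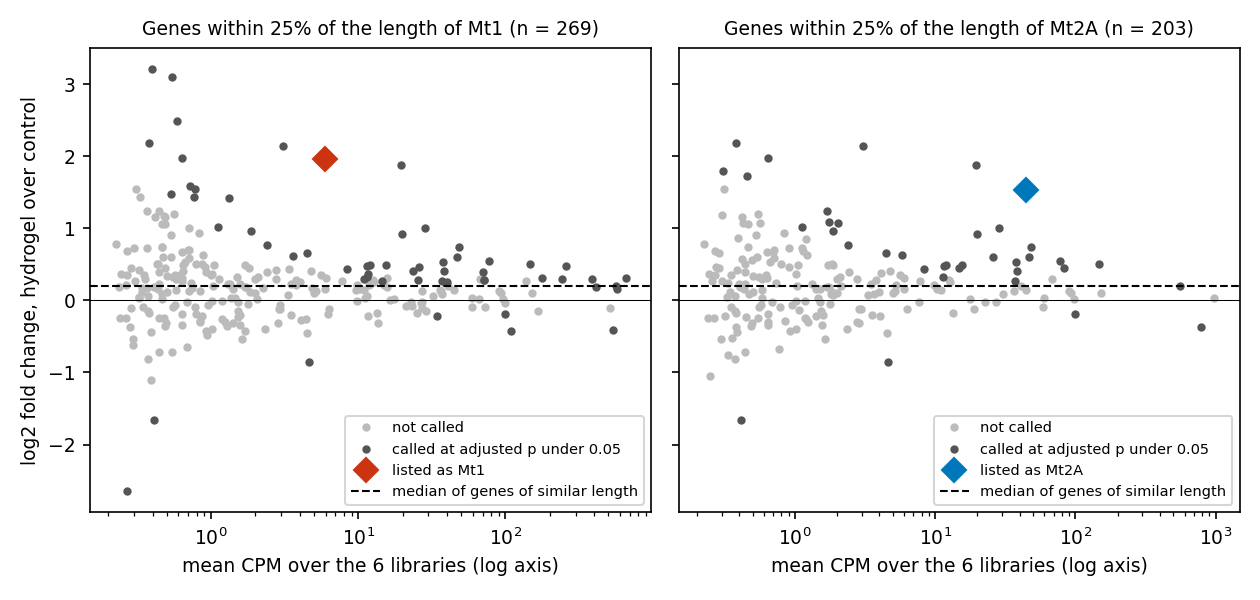
Log2 fold change (hydrogel over control) against mean CPM on a log axis for the genes within 25% of the length of Mt1 (left, n = 269) and of Mt2A (right, n = 203); dark points were called at an adjusted p under 0.05, dashed lines are medians and the diamonds are Mt1 and Mt2A. Most genes that reach the height of the diamonds are at the low end of the abundance axis, while genes of similar level lie nearer the dashed lines at 0.20 and 0.21.

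Correcting every library for a smooth trend of level on length lowered the log2 fold change of Mt1 to 1.74 and of Mt2A to 1.31. Both stayed called by edgeR, with adjusted p = 2.33e-06 and 1.00e-09. The removal centres genes of each length, so some decrease was built in.

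The genes with the most similar pattern were found by the Pearson correlation of log2 CPM over the 6 libraries, among the 10248 others that averaged 5 CPM or more. These correlations are largely set by the difference between the groups. ENSRNOG00000047046, of 5605 bp, was the closest to Mt1 (r = 0.9971). It went from 9.75 ± 1.40 to 17.4 ± 1.18 CPM (SD, n = 3 each), a log2 fold change of 0.82. ENSRNOG00000020583, of 1584 bp, was the closest to Mt2A (r = 0.9997), with 216 ± 0.438 and 257 ± 4.04 CPM and a log2 fold change of 0.25. A high r did not mean a similar size of change. At r of 0.99 or more there were 20 genes for Mt1 (0.195% of those compared) and 192 for Mt2A (1.87%). These numbers depend on how close the libraries of a group lie for each member, and shared regulation was not tested. Mt1 and Mt2A correlated with each other at 0.946.

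**Figure D4:**
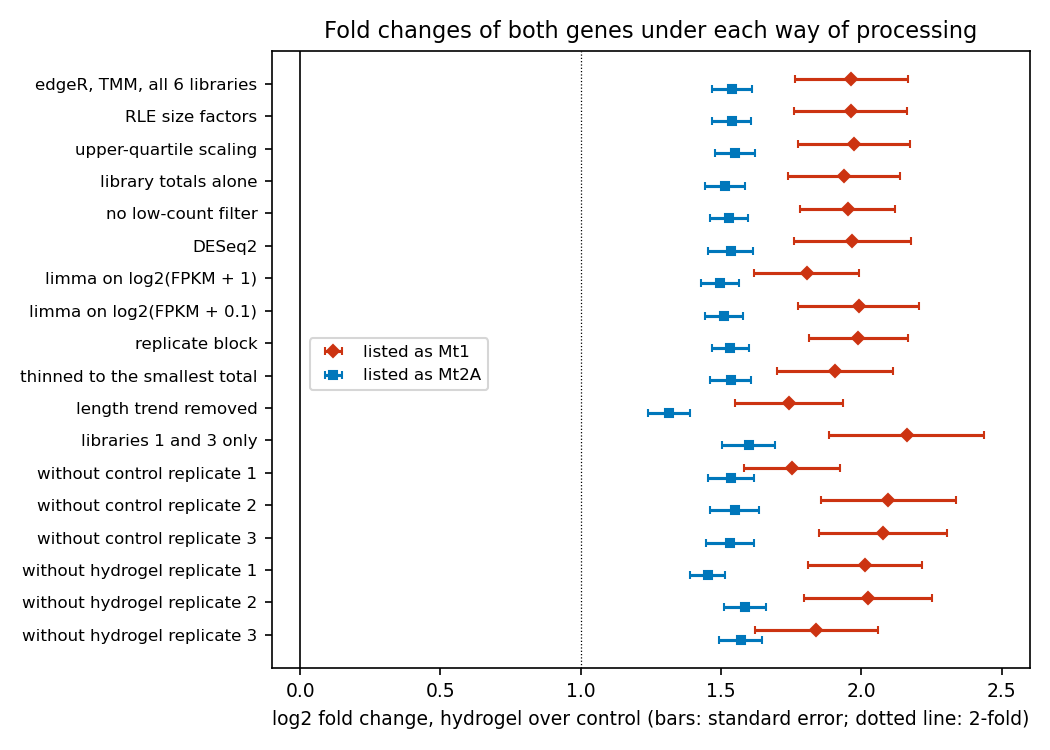
Log2 fold change (hydrogel over control) of Mt1 and Mt2A, with standard errors, in the reported fit (top) and under 17 other ways of processing; the solid line marks no change and the dotted line a 2-fold change. Mt1 lies between 1.74 and 2.16 and Mt2A between 1.31 and 1.60, all beyond 2-fold.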

How the data were processed

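The files deposited by the authors hold unnormalised counts of each gene in 6 libraries (totals of 30601703 to 93728651) and, in a file for each library, FPKM values, per the file headers. Per the labels' protocols, RNA came from TRIzol extraction and the library kit was VAHTS Universal V6. The aligner, counting tool and strandedness are not given in the sources used here. Builds GRCm38 and mm10, which are of mouse, stand in the submitters' processing notes although the labels name rat, so no coordinates were given to measured genes. Gene lengths were recovered by dividing each count by its FPKM and library total.

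Counts were tested on the whole table with edgeR 4.0.16 in R 4.3.3 (filterByExpr, TMM, quasi-likelihood F test, group as the term). The filter kept 14715 genes, both members among them, and a call is an adjusted p under 0.05. Log2 CPM used a prior count of 2. The SE given with an edgeR log2 fold change is the size of that change divided by the square root of the F statistic. Standard errors for DESeq2 and limma came from their own statistics. Ratios were tested with scipy 1.17.1. Alternatives were DESeq2 1.42.0, limma 3.58.1 on log2 FPKM of the same genes, other scalings and filters, thinning, a length trend removed (loess, span 0.5), a replicate block and libraries left out. The fit was tested on simulated data. Nothing says that libraries of a group came from separate cultures, so the p-values cover no more than the spread between these libraries, possibly a technical one. All 6 within-group pairs differed beyond counting noise.

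The genes named are both members and, for each, the most correlated other gene. The members, lists and tests were chosen with earlier results of these data known. Lists of zinc, copper, stress and cell type genes had been set by symbol. The RefSeq gene table holds 0 Ensembl identifiers, so none could be matched, and they are not analysed here. RefSeq promoters were matched by symbol for both members.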

Additional observations from a re-analysis of the deposited data

How the results depend on the processing

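Mt1 and Mt2A kept their direction and their call in all 17 alternatives, with log2 fold changes of 1.74 to 2.16 (adjusted p from 2.42e-29 to 0.000398) and 1.31 to 1.60 (2.03e-107 to 1.36e-05). The lowest p of each gene came from edgeR with no low-count filter, where the log2 fold changes were 1.95 and 1.53. Those p-values rest on the same 6 libraries and are not to be read as stronger evidence. Leaving out 1 library gave 1.75 to 2.10 for Mt1 and 1.45 to 1.59 for Mt2A. With the replicate block the values were 1.99 and 1.53. The labels tie sample numbers to no animal or day, and same-numbered libraries' deviations correlated at 0.022, 0.051 and 0.013, so the numbers were not taken as pairs. The block called 5246 genes in place of 5079, and every library correlated best with the one of its own number in the other group, which is a hint from the data and not from the design. Libraries 1 and 3 alone called 3405. The difference in the Mt1 to Mt2A log2 ratio, 0.50, ran from 0.21 (without control library 1) to 0.67 with 1 library left out. Paired by number, its exact permutation p was 0.25. So few pairs cannot give a smaller value, so the paired test could not decide whether the ratio differed. With the length trend removed, the median log2 fold change of genes of similar length fell from 0.20 to -0.02 near Mt1 and from 0.21 to -0.019 near Mt2A, which the removal builds in. The 10 other alternatives for each median moved it by less than the spread between hydrogel libraries. The row before Mt2A, added after seeing the data, was called in all 17 alternatives (1.65 to 1.93). Mt1 rests on 55 counts in its lowest library.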
